A study of Mus musculus with 9 samples.

Results

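Gene expression was compared between kidneys of bile duct ligated mice that had been fed norursodeoxycholic acid (norUDCA) and kidneys of ligated mice that had not. Common bile duct ligation (CBDL) was kept for 3 weeks and closes the outlet of the liver's bile. The norUDCA-fed group received norUDCA for 5 days before surgery and was then ligated for the same 3 weeks. The labels do not say whether feeding went on after surgery, and they give no strain, age or sex. A sham-operated group, sampled at the same 3 weeks, is shown beside the others, and no sham group fed norUDCA is among the samples. The comparison rests on 6 of the 9 arrays, 3 per group, chosen by their titles, and covers the 22180 genes that have a row with a single gene symbol. Arrays carry the number in their label, and values are given in the order CBDL_164, CBDL_165, CBDL_170 and norUDCA_CBDL_172, norUDCA_CBDL_175, norUDCA_CBDL_179. Where a gene's values stand as 3 against 3, the CBDL arrays come first. Signals are log2 values, so a difference of 1 is a 2-fold change.

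As background, retained bile acids leave the body of a cholestatic animal largely through the kidney, where they reach the tubular fluid at high concentration, and the tubule damage, inflammation and fibrosis that can follow are known as cholemic nephropathy. norUDCA is a derivative of ursodeoxycholic acid with a shorter side chain. It largely escapes conjugation and is partly excreted in urine. The proximal tubule takes back most of what the glomerulus filters, makes glucose, breaks down amino acids and secretes organic anions, and it runs on fatty acid oxidation. Injured tubule cells lower these programmes and switch on genes of dedifferentiation, adhesion and matrix turnover.

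The tissue was checked against genes that define kidney segments. Lrp2, Umod, Slc12a3, Slc34a1, Kap and Cdh16 all had mean signals above 10 in each group, and Aqp2 was between 8.23 and 10.12 on every array. Array medians over all rows lay between 5.7 and 5.79. On the first principal component of all genes (58.3% of the variance) the sham arrays spanned -42.2 to -34.1, the norUDCA-fed arrays -6.6 to 0.5 and the CBDL arrays 26.1 to 57, with CBDL_170 nearest to the fed arrays and CBDL_165 farthest. On the fed array norUDCA_CBDL_172 the Y-linked genes were lower than on the other fed arrays, with Kdm5d at 6.46, 7.97 and 7.91, Eif2s3y at 7.64, 9.13 and 9.05 and Uty at 7.66, 9.15 and 9.27, while Xist was at 3.66, 3.90 and 3.88. At least 2 of the 3 fed arrays lay within 5e-04 of each other in 14.7% of all genes and in 10.5% of the genes called below. Counts without an array are given for the gene lists where leaving it out moved a count by more than 1.5 times, and as ranges for some gene families.

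Across all genes, 1509 of 22180 (6.8%) differed at a limma adjusted p under 0.05, and these are the called genes, written as risen or fallen. Of them 800 (3.61% of all genes) were higher and 709 (3.2%) lower in the norUDCA-fed kidneys, and 239 and 160 of these changed at least 2-fold. The median difference over all genes was 0 and the median standard error (SE) of a difference was 0.14. Differences ran from -2.79 for Mmp7 to 3.73 for Cyp2d12. In all 1509 called genes the 3 arrays of 1 group lay entirely above the 3 of the other, whereas over all genes 2572 (11.6%) had the fed arrays entirely above and 2796 (12.6%) entirely below. The labels do not say that arrays came from separate animals, so the p-values refer to the spread between these arrays alone, which may be technical.

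**Figure D1:**
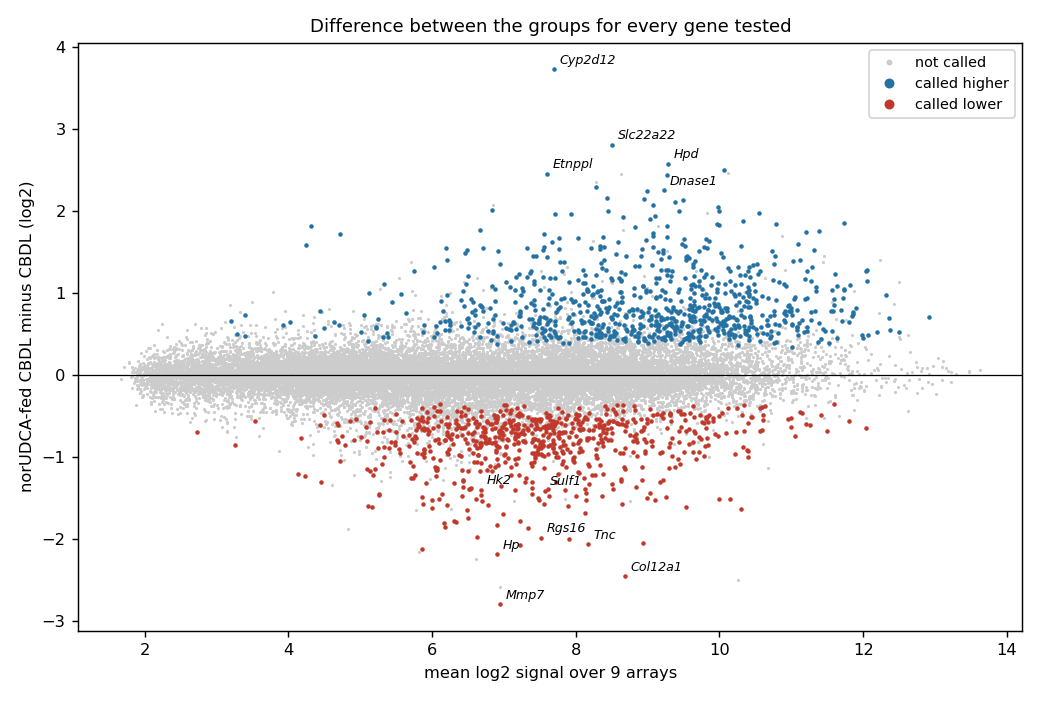
Difference between norUDCA-fed CBDL and CBDL kidneys (log2, vertical axis) against the mean log2 signal over 9 arrays (horizontal axis), 1 point per gene, with called genes in blue (800 higher) and red (709 lower). The largest called differences were 3.73 (Cyp2d12) and -2.79 (Mmp7), and 46 called genes had a mean signal under 5.2.

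The number of calls depended on single arrays. Every called gene kept its sign when each of the 9 arrays was left out in turn. This had to be so, because the CBDL and fed values of every called gene do not overlap and sham arrays do not enter the difference. The highest adjusted p that any called gene reached in these fits was 0.183. The calls numbered 149 higher and 212 lower without CBDL_164, 356 and 339 without CBDL_165, 289 and 215 without norUDCA_CBDL_172, 136 and 142 without norUDCA_CBDL_175, and 242 and 329 without norUDCA_CBDL_179. Without CBDL_170 they numbered 1152 and 891. A core of 232 genes (99 higher, 133 lower) was called in every one of these fits. With each array centred on its median, 1224 genes were higher and 646 lower, so the balance of directions leaned further to higher genes.

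**Figure D2:**
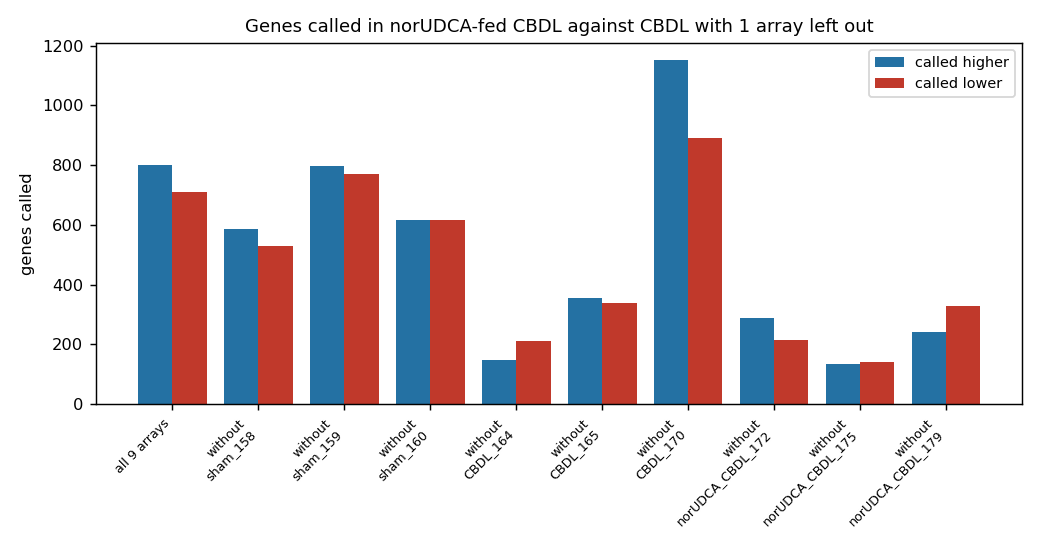
Number of genes called higher (blue) and lower (red) in norUDCA-fed CBDL against CBDL kidneys with all 9 arrays and with each array left out. Counts ranged from 136 higher and 142 lower without norUDCA_CBDL_175 to 1152 higher and 891 lower without CBDL_170.

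Most members of the proximal tubule lists rose and most members of the injury, matrix and macrophage lists fell, against 3.61% of all genes higher and 3.2% lower. Among 26 measured genes of proximal tubule metabolism 21 rose, among 38 transporters 29 rose, and among 28 tubular injury genes 23 fell. No member of the interferon, lymphocyte or neutrophil lists was called with all 9 arrays. A single call in a list can lie near the shares of all genes. The lists are described in turn, with each list's median beside the median of 0 over all genes.

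**Figure D3:**
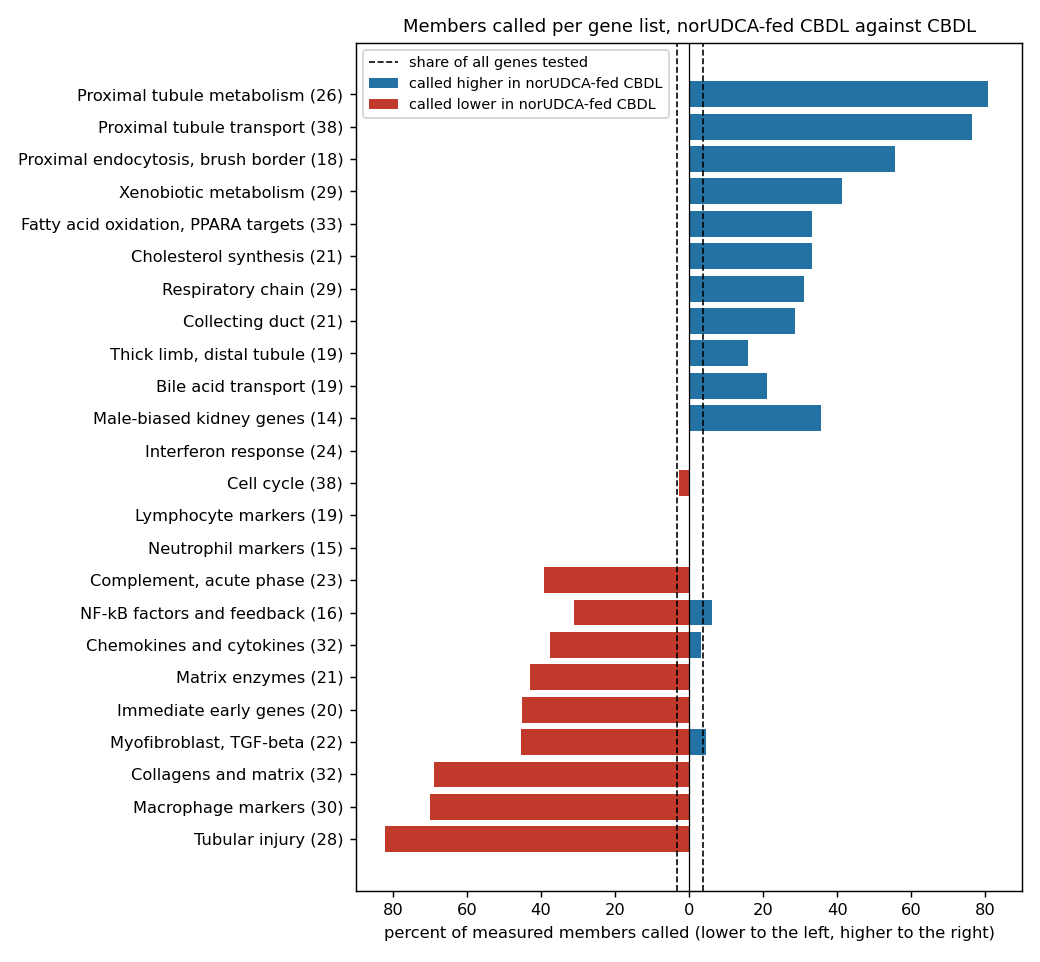
Percent of the measured members of each gene list (number in brackets) that were called lower (red, to the left) or higher (blue, to the right) in norUDCA-fed CBDL against CBDL kidneys. Dashed lines mark the share of all genes called, 3.2% lower and 3.61% higher, and the longest bars are tubular injury (82.1% lower) and proximal tubule metabolism (80.8% higher).

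The transporters that bring solutes across the proximal tubule rose almost as a group. Of 38 measured members 29 rose and none fell, and the median difference was 0.86. In 34 members the fed arrays all lay above the CBDL arrays, against 11.6% of all genes. The urate exchanger Slc22a12 (URAT1) read 9.90, 9.55 and 10.38 in CBDL and 11.33, 11.33 and 11.39 in norUDCA-fed CBDL. All 3 fed arrays were above the highest CBDL array by almost 1 log2 unit, and the rise was 1.40 ± 0.18 (SE, 2.65-fold, adjusted p = 0.00785). The related anion transporter Slc22a13 rose by 1.34 ± 0.19 and the solute carrier Slco4c1 by 1.28 ± 0.20. The intestinal-type glucose carrier Slc5a1 (SGLT1), which recovers the last filtered glucose, read 8.71, 8.70 and 8.94 in CBDL and 9.67, 9.56 and 9.56 in fed kidneys. These values do not overlap, and the fed arrays were slightly above the sham mean of 9.36.

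The glucose carrier of the early tubule, Slc5a2 (SGLT2), rose by 1.24 ± 0.27 and the phosphate carrier Slc34a1 by 0.71 ± 0.15. The basolateral transporters that take organic anions and drugs up from the blood had larger differences and more spread among CBDL kidneys. Slc22a6 (OAT1) read 10.03, 8.74 and 11.10 in CBDL and 11.51, 11.94 and 11.69 in fed kidneys, a rise of 1.76 ± 0.45 (adjusted p = 0.0474). Slc22a8 (OAT3) read 10.76, 9.18 and 11.48 against 12.29, 12.37 and 12.31, and Slc22a7 (OAT2) 6.03, 4.82 and 6.58 against 7.29, 8.50 and 7.53. In each of them CBDL_165 was the lowest array and CBDL_170 the highest of its group, yet still below every fed array. The count of 29 became 5 without CBDL_164, 6 without norUDCA_CBDL_175, 8 without norUDCA_CBDL_172 or norUDCA_CBDL_179 and 16 without CBDL_165.

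Endocytosis and brush border genes followed, with 10 of 18 measured members risen, none fallen and a median of 0.88. Megalin and cubilin are the receptors that recover filtered protein. Lrp2, which encodes megalin, read 11.57, 11.12 and 12.07 in CBDL and 12.55, 12.61 and 12.54 in fed kidneys. Cubn, which encodes cubilin, read 10.99, 10.54 and 11.60 against 12.10, 12.09 and 12.04, and its partner Amn read 7.31, 7.44 and 7.95 against 8.41, 8.60 and 8.41. The fed arrays of all these genes lay above the CBDL arrays and within 0.1 of each other for Lrp2 and Cubn, whose CBDL arrays were spread over about 1 log2 unit. The rises were 0.98 ± 0.19, 1.04 ± 0.21 and 0.91 ± 0.17, with adjusted p = 0.0181, 0.0214 and 0.0145.

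Peptidases of the brush border, which trim filtered peptides and angiotensins, included Enpep, up by 0.68 ± 0.14, and Ace, up by 0.85 ± 0.19. Ace stayed below sham, with group means of 11.43 in sham, 9.37 in CBDL and 10.21 in fed kidneys. Dnase1, a secreted nuclease of the tubule, was the member farthest below sham in the fed kidneys. It read 12.07, 12.10 and 12.38 in sham, 6.21, 6.20 and 7.49 in CBDL and 8.68, 9.31 and 8.68 in fed kidneys. Every fed array was above every CBDL array and more than 2 log2 units below every sham array, and the rise over CBDL was 2.26 ± 0.32 (4.78-fold, adjusted p = 0.00815). The 10 calls of the list became 1 without CBDL_164 or norUDCA_CBDL_175, 2 without norUDCA_CBDL_172 or norUDCA_CBDL_179 and 6 without CBDL_165.

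Metabolic enzymes of the proximal tubule had the highest median among the nephron lists, 1.20, with 21 of 26 risen and none fallen. The tyrosine breakdown enzyme Hgd read 9.56, 9.33 and 10.16 in CBDL and 11.13, 11.19 and 11.08 in fed kidneys, a rise of 1.45 ± 0.18 (adjusted p = 0.00658). Hpd, which acts just before it, read 7.87, 6.31 and 8.88 against 10.45, 10.43 and 9.92 and rose 5.99-fold. The fed arrays of Hpd reached the sham level (mean 9.90), while the CBDL arrays spanned more than 2 log2 units.

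Gluconeogenesis ends in glucose 6-phosphatase. G6pc, its catalytic unit, read 10.37, 10.25 and 10.81 in CBDL and 11.46, 11.57 and 11.65 in fed kidneys, and Slc37a4, which carries glucose 6-phosphate to it, read 9.18, 9.06 and 9.53 against 10.29, 10.45 and 10.46. Neither overlapped, and they rose by 1.08 ± 0.14 and 1.14 ± 0.13. Fbp1 rose by 1.61 ± 0.32 and Pck1, the entry enzyme of the pathway, by 1.53 ± 0.35, with CBDL_165 again the lowest array of both (9.94, 8.97 and 10.61 for Fbp1). Fructokinase, Khk, read 9.50, 9.15 and 9.80 against 10.70, 10.99 and 10.82 and rose by 1.36 ± 0.16. Keg1, a kidney-enriched acyltransferase of the glycine acyltransferase type, rose by 1.10 ± 0.16. The count of 21 became 5 without norUDCA_CBDL_175, 6 without CBDL_164, 8 without norUDCA_CBDL_179 and 9 without norUDCA_CBDL_172.

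Hnf4a, a nuclear receptor that maintains proximal tubule identity, rose by 0.54 ± 0.11 (adjusted p = 0.0194), and its antisense transcript Hnf4aos rose by 1.97 ± 0.24. Hnf4aos read 6.22, 6.21 and 7.03 in CBDL and 8.20, 8.81 and 8.36 in fed kidneys with no overlap. Whether its probes tell it apart from Hnf4a was not tested. An HNF4 element, CAAAGTCCA, searched on both strands of the 250 bases before each gene's start, was present in 0.473% of the 16918 genes with a window, in 1.39% of the 649 that rose and in 0.928% of the 539 that fell. The HNF1 element GTTAAT followed by any base and ATT was present in 0.431% of all these windows, in 1.39% of those of genes that rose and in 0.186% of those of genes that fell. The windows of G6pc and F13b are shown because both genes rose and hold the element, in capitals (in F13b it reads on the opposite strand). They are RefSeq sequence of build GRCm38.p6, at chr11:101367466-101367715 and chr1:139501457-139501706, plus strand.
G6pc: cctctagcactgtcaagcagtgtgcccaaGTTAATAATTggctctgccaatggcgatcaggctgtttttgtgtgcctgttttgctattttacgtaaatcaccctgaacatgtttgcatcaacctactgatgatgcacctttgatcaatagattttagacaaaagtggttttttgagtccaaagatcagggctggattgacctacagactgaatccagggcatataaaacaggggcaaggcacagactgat
F13b: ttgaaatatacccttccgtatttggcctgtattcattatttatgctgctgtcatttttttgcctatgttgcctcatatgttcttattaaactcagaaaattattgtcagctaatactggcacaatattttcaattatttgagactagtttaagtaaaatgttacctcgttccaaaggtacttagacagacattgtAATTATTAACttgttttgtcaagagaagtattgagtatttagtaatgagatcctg
F13b, the carrier subunit of coagulation factor XIII, read 7.36, 6.56 and 8.67 in CBDL and 9.44, 9.83 and 9.54 in fed kidneys, a rise of 2.08 ± 0.41. A match is a description of letters, and binding of any factor was not measured.

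The gene with the largest rise was Cyp2d12, a cytochrome P450 of the Cyp2d cluster, at 5.23, 2.68 and 6.27 in CBDL and 9.28, 8.18 and 7.92 in norUDCA-fed CBDL. The groups do not overlap, but CBDL_165 lay more than 2 log2 units below the other CBDL arrays. The rise was 3.73 ± 0.75 (13.3-fold, adjusted p = 0.0194). Next came the organic anion transporter Slc22a22 at 2.81, Hpd at 2.58 and the protease inhibitor Serpina1d at 2.50. Etnppl, which breaks down phosphoethanolamine, combined a large rise with an SE that was small beside it. It read 5.87, 5.59 and 6.83 in CBDL, 8.62, 8.66 and 8.39 in fed and 7.97, 8.26 and 8.24 in sham kidneys, so the fed arrays were at or above the sham arrays, and the rise was 2.46 ± 0.27 (adjusted p = 0.00655).

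Others of the largest rises were transporters (Slc22a19, Slc22a28 and Slc16a4), esterases (Ces1e and Ces1f), and enzymes of amino acid, steroid or fatty acid metabolism (Bhmt2, Aspdh, Dmgdh, Acmsd, Akr1d1, Akr1c21 and Eci3). Ces1e, a carboxylesterase, read 6.65, 5.61 and 6.93 against 8.47, 8.84 and 8.76 and rose 4.9-fold. Aspdh, an aspartate dehydrogenase, read 6.33, 6.09 and 7.30 against 8.61, 9.12 and 8.47, and the fed arrays stayed below the sham mean of 9.98. Bhmt2, which remethylates homocysteine, rose by 2.24 ± 0.36, and Eci3, an isomerase of fatty acid oxidation in peroxisomes, by 2.15 ± 0.35. Members of the Cyp2d, Ces1 and Slc22 clusters are close paralogs, and the share of signal that a probe set draws from a paralog was not tested.

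Of 29 measured respiratory chain subunits 9 rose. All 29 had a difference above 0, with a median of 0.41 and a range of 0.09 to 0.70. In 26 of them the fed arrays lay above all CBDL arrays, against 11.6% of all genes. Ndufs1, of complex I, read 9.50, 9.37 and 9.82 in CBDL and 10.10, 10.49 and 10.21 in fed kidneys. Sdhb, of complex II, read 8.95, 8.85 and 8.95 against 9.46, 9.53 and 9.48, and Cyc1, of complex III, 8.95, 8.67 and 8.99 against 9.45, 9.71 and 9.43. None of these overlapped, and they rose by 0.70 ± 0.14, 0.57 ± 0.10 and 0.66 ± 0.12. The 9 calls became 0 without norUDCA_CBDL_175, 1 without CBDL_164, 2 without CBDL_165 or norUDCA_CBDL_179, 3 without norUDCA_CBDL_172 and 5 without sham_158 or sham_160.

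In the list of PPARA targets and fatty acid oxidation, 33 genes were measured, of which 11 rose and none fell (median 0.45). Acaa1b, the peroxisomal thiolase, read 7.94, 8.25 and 8.34 in CBDL and 9.34, 9.11 and 9.34 in fed kidneys and rose by 1.09 ± 0.13 (adjusted p = 0.00655). Acot3, a peroxisomal acyl-CoA thioesterase, read 6.54, 6.25 and 7.35 against 8.20, 8.19 and 8.10, and the fed arrays were above the sham mean of 7.45. Acadm, the medium-chain dehydrogenase of mitochondria, rose by 0.53 ± 0.10 and Ehhadh by 0.96 ± 0.19. The receptor itself, Ppara, had a difference of 0.63 ± 0.18 that did not pass (adjusted p = 0.0671), while its coactivator Ppargc1a rose by 0.45 ± 0.11. Pdk4 and Fabp1, other classical targets, had differences of -0.65 ± 0.33 and 0.23 ± 0.22 and were not called. The count of 11 became 2 without CBDL_164, 3 without norUDCA_CBDL_172, norUDCA_CBDL_175 or norUDCA_CBDL_179, 5 without CBDL_165 and 19 without CBDL_170.

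Cyp4a14, a fatty acid omega-hydroxylase and PPARA target, was higher in CBDL than in sham kidneys and higher again after norUDCA. It read 6.04, 6.24 and 5.68 in sham, 8.77, 8.77 and 8.95 in CBDL and 10.21, 9.53 and 10.41 in fed kidneys. No array of 1 group reached into another, and the fed kidneys were 1.22 ± 0.22 above CBDL (2.34-fold, adjusted p = 0.014, and at most 0.0573 with 1 array left out). Cyp4a31, a related enzyme, read 11.41, 11.46 and 11.41 in sham, 10.37, 10.26 and 11.19 in CBDL and 11.51, 11.64 and 11.46 in fed kidneys. In fed kidneys it lay at or just above the sham level.

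**Figure D4:**
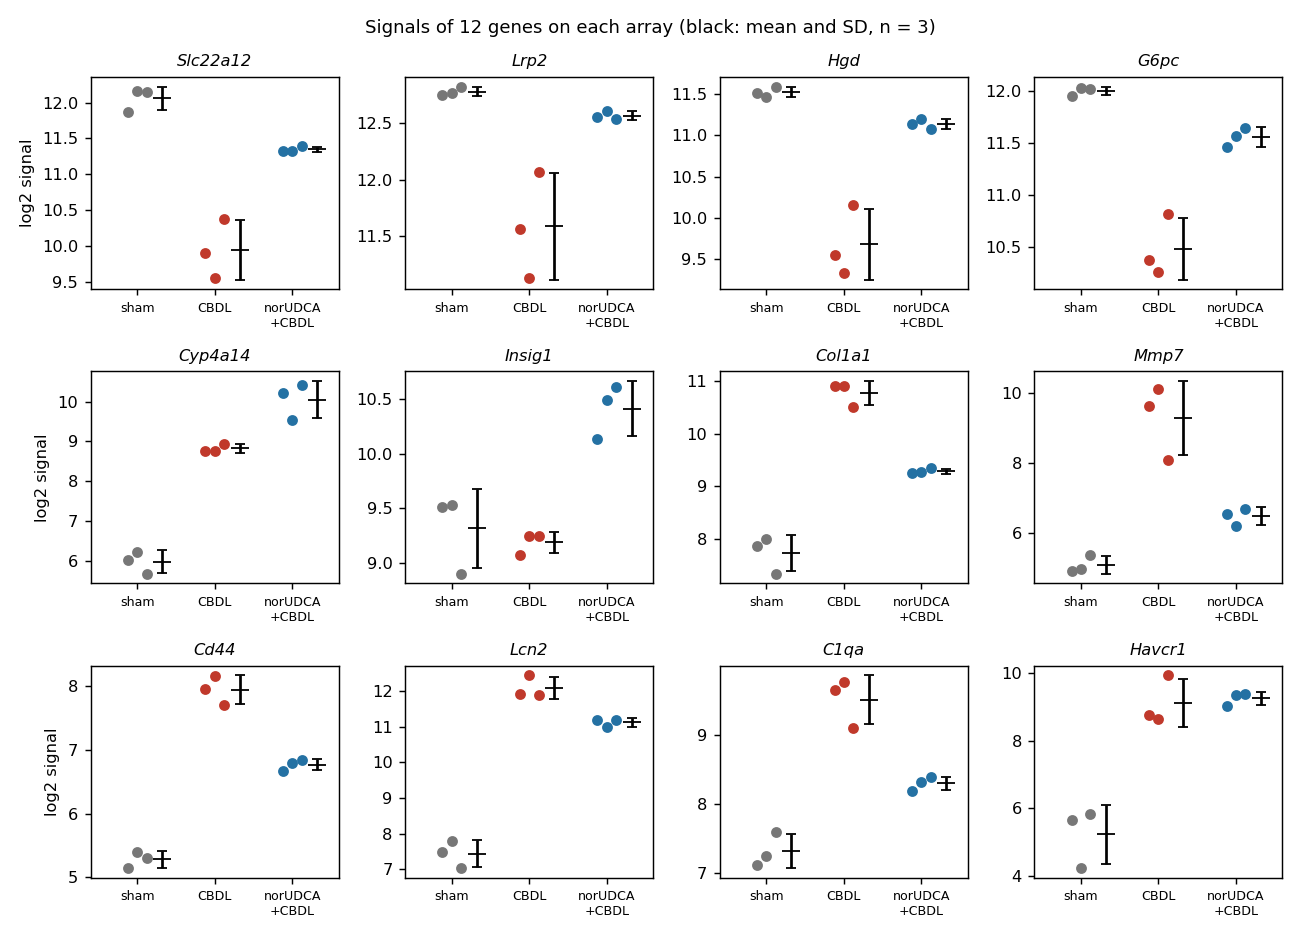
Log2 signal (vertical axis) of 12 genes on each array of the sham (grey), CBDL (red) and norUDCA-fed CBDL (blue) groups, with the mean and SD of each group in black (n = 3). Fed arrays lie between sham and CBDL for most of the genes, above both for Cyp4a14 and Insig1, and among the CBDL arrays for Havcr1.

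Cholesterol synthesis genes all had differences above 0, and 7 of 21 measured members rose (median 0.64). In 15 members the fed arrays lay entirely above the CBDL arrays, against 11.6% of all genes. Insig1, the sterol-responsive protein that holds SREBP in the endoplasmic reticulum and is itself an SREBP target, read 9.52, 9.53 and 8.91 in sham, 9.08, 9.25 and 9.25 in CBDL and 10.13, 10.49 and 10.61 in fed kidneys. The fed arrays were above both other groups, and the rise over CBDL was 1.22 ± 0.18 (adjusted p = 0.00883). Hmgcs1, the first committed enzyme of the mevalonate pathway, read 10.97, 10.72 and 11.30 against 11.66, 11.90 and 11.78 and rose by 0.79 ± 0.16. Cyp51, the sterol demethylase, read 7.86, 8.24 and 8.44 against 8.84, 10.22 and 9.34, with norUDCA_CBDL_175 the highest array, and Nsdhl, which acts in the same demethylation, rose by 1.13 ± 0.21. Stard4, which moves sterols between membranes, rose by 0.98 ± 0.20. The 7 calls became 1 without CBDL_164, norUDCA_CBDL_175 or norUDCA_CBDL_179 and 2 without CBDL_165.

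The sterol regulatory element TCACNCCAC was found, on either strand, in 1.22% of all windows, 1.69% of those of genes that rose and 1.11% of those that fell. Of the 7 called members of the list 6 had a window, and only 1 of these windows, that of Hmgcs1, held the element. The Hmgcs1 window (chr13:119690101-119690350, plus strand, GRCm38.p6, RefSeq) is shown for this reason, with its match in capitals.
Hmgcs1: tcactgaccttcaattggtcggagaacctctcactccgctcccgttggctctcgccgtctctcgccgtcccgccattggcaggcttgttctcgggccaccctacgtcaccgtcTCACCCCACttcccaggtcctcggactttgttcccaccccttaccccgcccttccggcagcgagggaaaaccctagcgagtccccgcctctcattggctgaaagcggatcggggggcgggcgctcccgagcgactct

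Bile acid carriers were mixed. Of 19 measured members 4 rose, none fell and 15 were not called (median 0.37). The apical export pump Abcc2 (MRP2), which moves conjugates into the urine, read 10.13, 10.57 and 10.75 in CBDL, 11.21, 11.32 and 11.26 in fed and 11.09, 11.29 and 11.19 in sham kidneys, a rise of 0.78 ± 0.15 over CBDL (adjusted p = 0.0164). Abcc3 and Abcc4, export pumps that are higher in CBDL than in sham kidneys here, had differences of -0.57 ± 0.24 (adjusted p = 0.225) and -0.21 ± 0.14 (adjusted p = 0.521). Abcc3 read 8.27, 8.70 and 7.99 against 7.65, 7.58 and 8.01, so the groups overlapped. The apical uptake carrier Slc10a2 (ASBT) read 7.50, 8.26 and 9.03 against 9.03, 9.01 and 9.03, and the basolateral exporter subunit Slc51a (OSTalpha) 8.72, 7.23 and 9.54 against 9.71, 10.47 and 9.87. CBDL_165 was lowest for Slc51a and CBDL_164 for Slc10a2, CBDL_170 lay among the fed arrays of Slc10a2, and neither passed the test (adjusted p = 0.184 and 0.0928). The 4 calls became 1 without norUDCA_CBDL_172, norUDCA_CBDL_175 or norUDCA_CBDL_179, 2 without CBDL_164 or CBDL_165 and 8 without CBDL_170.

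Among 23 bile acid enzymes and receptors 3 rose and none fell. They were Amacr, the racemase of side-chain shortening, which read 8.68, 8.07 and 9.33 against 10.03, 10.32 and 10.06, the reductase Akr1d1, and Fgfr4, the receptor of the FGF15 signal, up by 0.64 ± 0.15. Cyp27a1 had a difference of 0.34 ± 0.09 that just missed the threshold (adjusted p = 0.0524). The 3 calls became 0 without CBDL_164 or norUDCA_CBDL_175, 1 without norUDCA_CBDL_172 or norUDCA_CBDL_179 and 5 without CBDL_170.

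Genes of xenobiotic metabolism rose in 12 of 29 members, with a median of 0.77 and no member fallen. Fmo2, a flavin monooxygenase, read 10.40, 10.55 and 10.55 in CBDL and 11.15, 11.05 and 11.08 in fed kidneys, a rise of 0.59 ± 0.10. The soluble epoxide hydrolase Ephx2 read 9.22, 9.06 and 9.90 against 10.33, 10.55 and 10.44, and the P450 Cyp4b1 10.63, 10.29 and 11.22 against 11.90, 11.70 and 11.70. All were without overlap and below sham, whose means were 11.63, 11.40 and 12.73. Cyp3a11 and Cyp2b10, classical targets of the pregnane X and constitutive androstane receptors, had differences of -0.20 ± 0.18 and -0.63 ± 0.33 and were not called. The 12 calls became 0 without CBDL_164 or norUDCA_CBDL_175, 2 without norUDCA_CBDL_179, 3 without norUDCA_CBDL_172, 5 without CBDL_165 and 19 without CBDL_170.

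Several kidney genes are known to be higher in males, and 5 of 14 measured members of such a list rose (median 0.78). They were Cyp2d12, Slc22a7, Slc22a28, Akr1c18 and Ugt2b38. Akr1c18, a hydroxysteroid dehydrogenase, read 5.03, 5.19 and 6.75 in CBDL and 7.28, 7.60 and 6.75 in fed kidneys, where CBDL_170 and norUDCA_CBDL_179 met at 6.75 after rounding. Kap, the androgen-responsive kidney protein, read 10.70, 10.13 and 11.91 against 11.50, 12.31 and 12.02 and did not pass (adjusted p = 0.158). The 5 calls became 0 without CBDL_164, norUDCA_CBDL_172 or norUDCA_CBDL_175, 1 without norUDCA_CBDL_179, 2 without CBDL_165, 3 without sham_158 or sham_160 and 8 without CBDL_170. The lower Y-linked signals of norUDCA_CBDL_172 stand beside this list, and their part in the result was not tested.

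**Figure D5:**
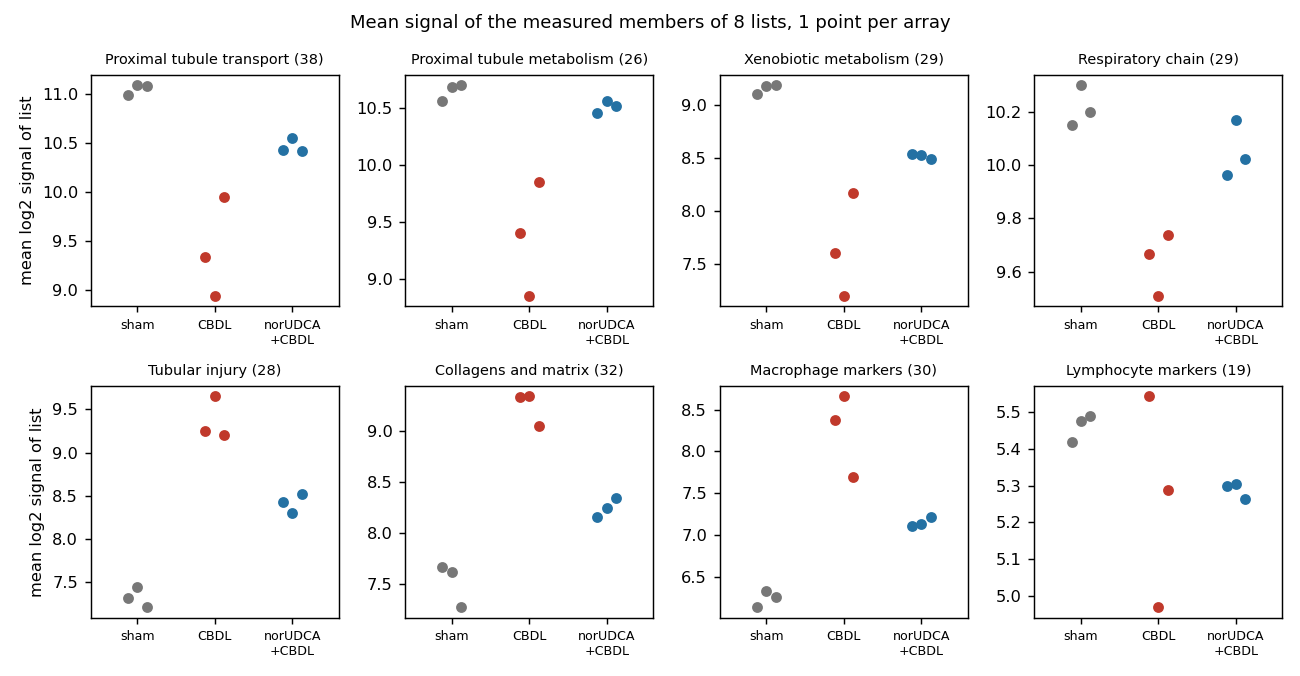
Mean log2 signal (vertical axis) of the measured members of 8 gene lists on each array, with sham in grey, CBDL in red and norUDCA-fed CBDL in blue (number of members in brackets). The fed arrays lie between sham and CBDL in the lists of transport, xenobiotic metabolism, injury, matrix and macrophage genes, and within the CBDL range for lymphocyte markers.

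On the side of falling genes, tubular injury genes led with 23 of 28 measured members fallen, none risen and a median of -0.97. List means lay between 9.20 and 9.65 on CBDL arrays, 8.30 and 8.52 on fed arrays, and 7.21 and 7.45 on sham arrays. Cd44, the hyaluronan receptor of injured epithelium and leukocytes, read 7.96, 8.17 and 7.71 in CBDL and 6.67, 6.79 and 6.85 in fed kidneys and fell by 1.17 ± 0.13 (adjusted p = 0.00655). Annexin A1, Anxa1, read 9.27, 9.79 and 9.06 against 8.04, 8.04 and 8.06, and Sox4, a transcription factor of immature epithelium, 9.67, 10.11 and 9.62 against 8.54, 8.23 and 8.74. The 3 genes were separated by at least 0.8 log2 units between the nearest arrays of the groups, and the fed levels stayed above sham (means 5.28, 7.14 and 7.60).

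Keratins of simple epithelium fell, with Krt18 at 9.06, 9.96 and 9.26 against 8.08, 7.53 and 8.10 (2.88-fold, adjusted p = 0.01), Krt19 down by 1.32 ± 0.24, Krt8 by 0.77 ± 0.19 and Krt20 by 0.95 ± 0.17. Krt20 kept most of its elevation, with means of 4.51 in sham, 8.08 in CBDL and 7.13 in fed kidneys. Lcn2, the siderophore-binding protein used as an injury marker, read 11.92, 12.44 and 11.90 against 11.19, 10.98 and 11.19, a fall of 0.97 ± 0.20 (adjusted p = 0.0232), and remained far above the sham arrays (7.48, 7.79 and 7.03). Vcam1, an adhesion molecule of injured tubule and endothelium, fell by 0.78 ± 0.16.

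Havcr1 (KIM-1), the phosphatidylserine receptor of injured proximal tubule, did not follow the list. It read 5.64, 4.23 and 5.83 in sham, 8.77, 8.66 and 9.95 in CBDL and 9.04, 9.36 and 9.40 in fed kidneys, where the CBDL arrays spanned the fed arrays. Its difference was 0.14 ± 0.43 (adjusted p = 0.921), so a change of a few SE in either direction was not detectable with these arrays. The others not called were Krt7, Itgb6, Cryab and Tff3. The 23 calls became 8 without norUDCA_CBDL_175, 11 without norUDCA_CBDL_172, 12 without CBDL_164 and 14 without CBDL_165 or norUDCA_CBDL_179. Macrophage markers moved in the same direction (21 of 30 fallen, list means of 7.69 to 8.66 in CBDL and 7.10 to 7.21 in fed kidneys), and their part in the falls of genes that leukocytes also express was not tested.

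Immediate early genes, transcription factors that respond within minutes to growth and stress signals, fell in 9 of 20 members (median -0.75). In 15 members the fed arrays lay entirely below the CBDL arrays, against 12.6% of all genes. Fosl2, an AP-1 subunit, read 9.41, 9.50 and 9.55 in CBDL and 8.55, 8.46 and 8.62 in fed kidneys, and its fall of 0.94 ± 0.10 was among the 10 lowest p-values of the whole comparison (adjusted p = 0.00655). Klf6 read 10.46, 10.60 and 10.50 against 9.66, 9.35 and 9.76, and the stress factor Atf3 7.65, 7.63 and 7.49 against 6.90, 6.54 and 6.76, both without overlap. Fos and Jun had differences of -0.75 ± 0.21 and -0.74 ± 0.22 and were not called. The 9 calls became 3 without norUDCA_CBDL_175 and 5 without CBDL_164.

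The AP-1 element TGANTCA was present, on either strand, in 7.42% of all promoter windows, 5.86% of those of genes that rose and 9.65% of those of genes that fell. The windows of Mmp7 and Plaur are given because these genes fell and hold 1 match each, in capitals. They lie at chr9:7691840-7692089 and chr7:24462233-24462482, plus strand, GRCm38.p6, from RefSeq.
Mmp7: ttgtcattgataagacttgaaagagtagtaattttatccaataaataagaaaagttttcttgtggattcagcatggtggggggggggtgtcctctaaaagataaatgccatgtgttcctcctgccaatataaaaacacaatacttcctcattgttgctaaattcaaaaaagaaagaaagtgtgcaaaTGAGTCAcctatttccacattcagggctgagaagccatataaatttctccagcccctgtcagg
Plaur: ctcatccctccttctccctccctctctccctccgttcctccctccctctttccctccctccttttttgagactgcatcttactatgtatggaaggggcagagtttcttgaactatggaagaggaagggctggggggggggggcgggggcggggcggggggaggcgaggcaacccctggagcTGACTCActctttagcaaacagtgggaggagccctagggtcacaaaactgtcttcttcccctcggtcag
Mmp7, the epithelial metalloproteinase matrilysin, had the largest fall of all genes. It read 9.62, 10.12 and 8.09 in CBDL, 6.55, 6.20 and 6.70 in fed and 4.91, 4.99 and 5.38 in sham kidneys, a fall of 2.79 ± 0.42 (6.92-fold, adjusted p = 0.00883). CBDL_170 was the lowest CBDL array and still more than 1 log2 unit above every fed array. Plaur, the urokinase receptor, read 8.24, 8.60 and 8.45 against 7.49, 7.24 and 7.64 and fell by 0.98 ± 0.14. Of the 8 elements searched, the remaining 4 gave these shares. The TEAD element CATTCCA was in 3.81% of all windows, 2.93% of those of risen and 5.19% of those of fallen genes. The NF-kB element (GGGA, any base, TTTCC) was in 0.461%, 0.616% and 1.11%, the E2F element TTTCCCGC in 1.35%, 0.77% and 1.11%, and the E-box CACGTG in 7.85%, 9.71% and 6.86%, in the same order.

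Extracellular matrix genes fell in 22 of 32 members, with none risen and a median of -0.89. In 27 members the fed arrays lay entirely below the CBDL arrays, against 12.6% of all genes. Col1a1, the main fibrillar collagen, read 10.92, 10.90 and 10.52 in CBDL, 9.25, 9.27 and 9.34 in fed and 7.85, 7.99 and 7.33 in sham kidneys. The fed arrays formed a tight middle group, 1.49 ± 0.17 below CBDL (2.81-fold, adjusted p = 0.00655). Col15a1, a basement membrane collagen, read 8.81, 8.86 and 8.59 against 7.56, 7.56 and 7.53, Fbln2, an elastic fibre glycoprotein, 8.85, 8.91 and 8.30 against 6.84, 6.84 and 7.05, and Thbs1, an activator of latent TGF-beta, 11.26, 11.78 and 11.26 against 9.77, 9.86 and 10.13. All were without overlap and all 3 were called with any array left out.

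Col12a1, a fibril-associated collagen, fell by 2.45 ± 0.41 and tenascin C, Tnc, by 2.06 ± 0.38, both with CBDL_170 lowest in its group (10.96, 11.35 and 9.60 for Col12a1). Mfap5 fell 3.92-fold. Small proteoglycans were not called, with differences of -0.30 ± 0.16 for decorin (Dcn), -0.45 ± 0.20 for lumican (Lum) and -0.44 ± 0.13 for biglycan (Bgn). Postn and Vcan, at -1.05 ± 0.33 and -0.94 ± 0.33, also missed the threshold. The 22 calls became 13 without norUDCA_CBDL_175 and 14 without CBDL_164.

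Enzymes that remodel matrix fell in 9 of 21 members (median -0.76). Mmp14, a membrane-bound collagenase that activates Mmp2, read 10.73, 10.77 and 10.29 in CBDL and 9.06, 8.99 and 9.18 in fed kidneys, a fall of 1.52 ± 0.17. Mmp2, the gelatinase, read 9.85, 9.99 and 8.75 against 7.49, 7.50 and 7.61, and the aggrecanase Adamts1 10.34, 10.34 and 10.10 against 9.12, 9.25 and 9.15. Groups did not overlap in any of them. Timp1, the inhibitor of these proteases, fell by 1.12 ± 0.23 and remained above sham (means 4.54 in sham and 7.48 in fed kidneys). Sulf1, which removes sulfate from heparan sulfate, had the second lowest p of all genes. It read 9.17, 8.82 and 8.97 against 7.48, 7.47 and 7.79 and fell by 1.41 ± 0.12 (adjusted p = 0.00655). With 1 array left out the 9 calls ranged from 6 to 12.

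TGF-beta and myofibroblast genes fell in 10 of 22 members and 1 rose (median -0.56). The single rise (4.55%) was near the 3.61% of all genes. Tgfb2 read 7.92, 8.67 and 7.76 in CBDL and 6.71, 6.62 and 6.83 in fed kidneys, and the fed arrays were at the sham level (mean 6.61). Tgfb1 fell by 0.67 ± 0.09, and Ltbp2, a latent TGF-beta binding protein, by 1.83 ± 0.23. Bmp7, an epithelial growth factor that opposes TGF-beta signalling, was the member that rose. It read 9.71, 9.68 and 9.50 in sham, 8.84, 8.65 and 8.92 in CBDL and 9.56, 9.75 and 9.59 in fed kidneys, a rise of 0.83 ± 0.11 (adjusted p = 0.00794, at most 0.0444 with 1 array left out). Acta2, the smooth muscle actin of myofibroblasts, had a difference of -0.43 ± 0.16 and was not called (adjusted p = 0.155). The 10 falls became 4 without norUDCA_CBDL_175, 5 without CBDL_164 and 6 without norUDCA_CBDL_172 or norUDCA_CBDL_179.

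Connective tissue growth factor, Ccn2, and its relative Ccn1, which respond to TGF-beta and to stretch, fell by 0.95 ± 0.21 and 1.03 ± 0.16. A dimmer row of Ccn2 (mean signal 5.78), which was not used, had a difference of 0.02. Junction genes divided. Of 19 measured, Cldn4, Cldn3, Cldn6, Cldn1 and Cdh6 fell and the connexin Gjb2 rose by 0.95 ± 0.21. Cldn4, a barrier-forming claudin, read 9.87, 10.58 and 10.03 against 8.86, 8.20 and 8.72 and fell by 1.57 ± 0.23. Cdh16, the kidney cadherin, read 11.41, 11.38 and 11.35 against 11.47, 11.50 and 11.46 and was not called. The 5 falls became 1 without norUDCA_CBDL_175, 2 without CBDL_165, norUDCA_CBDL_172 or norUDCA_CBDL_179 and 3 without sham_160 or CBDL_164, and the 1 rise became 0 without CBDL_164, CBDL_165, norUDCA_CBDL_172, norUDCA_CBDL_175 or norUDCA_CBDL_179 and 2 without sham_159.

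Among the genes with the largest falls not named so far were Rgs16, Npy6r, Nkd2, Gpnmb and the acute phase genes Hp and Serpina3n. Some of them belong to lists described below. Rgs16, which shortens G protein signals, read 9.81, 9.19 and 8.95 in CBDL and 7.36, 7.30 and 7.36 in fed kidneys, a fall of 1.98 ± 0.20 (adjusted p = 0.00655). The fed arrays lay within 0.1 of each other and more than 1.5 below the nearest CBDL array. Nkd2, an antagonist of Wnt signalling, read 9.06, 9.25 and 8.37 against 6.26, 6.99 and 7.21 and fell by 2.08 ± 0.28. Hk2, the inducible hexokinase of glycolysis, had the lowest p of all genes. It read 5.78, 5.76 and 5.69 in sham, 7.89, 7.98 and 7.69 in CBDL and 6.44, 6.30 and 6.62 in fed kidneys, and fell by 1.40 ± 0.11 (2.63-fold, adjusted p = 0.00655, at most 0.0418 with 1 array left out).

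Macrophage markers fell in 21 of 30 measured members, none rose, and all 30 differences were below 0 (median -1.04). In 27 members the fed arrays lay entirely below the CBDL arrays, against 12.6% of all genes. In tissue RNA, fewer cells of a type and less RNA per cell cannot be told apart. C1qa, a chain of complement C1q made by macrophages, read 9.65, 9.76 and 9.10 in CBDL and 8.19, 8.31 and 8.39 in fed kidneys, and the pore protein Mpeg1 9.30, 9.46 and 8.80 against 8.01, 7.91 and 8.06. Ctss, the cathepsin that prepares MHC class II for peptides, read 11.41, 11.16 and 10.52 against 9.40, 9.40 and 9.45. Each was without overlap, and the falls were 1.21 ± 0.18, 1.19 ± 0.17 and 1.61 ± 0.19.

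Ccr2, the receptor of incoming monocytes, fell by 0.76 ± 0.11, Cx3cr1 by 0.54 ± 0.11, Itgam by 1.02 ± 0.19 and the lysosomal marker Cd68 by 1.26 ± 0.27. Cd68 stayed above sham in fed kidneys, with means of 7.43 in sham, 9.87 in CBDL and 8.61 in fed kidneys. The lectin receptor genes Clec4n and Clec4a3 fell by 1.45 ± 0.17 and 1.23 ± 0.14. Lyz2, Trem2 and Aif1 had differences of -1.53 ± 0.53, -0.79 ± 0.24 and -0.35 ± 0.15 and were not called. CBDL_170 was the lowest CBDL array in nearly all of the list, and the 21 calls became 4 without norUDCA_CBDL_175, 7 without CBDL_164, 8 without norUDCA_CBDL_172 and 11 without CBDL_165 or norUDCA_CBDL_179.

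Chemokines and cytokines fell in 12 of 32 members and 1, Cxcl12, rose (median -0.62). That single rise (3.12%) was near the 3.61% of all genes. Csf1, the growth factor of macrophages, read 8.77, 9.04 and 8.67 in CBDL and 7.90, 7.86 and 7.89 in fed kidneys, a fall of 0.94 ± 0.13 (adjusted p = 0.00794). Il34, the other ligand of its receptor, fell by 1.11 ± 0.25. Ccl2, which draws monocytes through Ccr2, read 7.53, 7.94 and 6.69 against 5.91, 6.14 and 6.28, and Ccl6 8.30, 8.77 and 6.65 against 5.94, 6.29 and 6.28. Both were highest on CBDL_165 and lowest of their group on CBDL_170. Cxcl1, a neutrophil attractant, fell by 0.89 ± 0.19, while Il1b and Il6 were not called (-0.63 ± 0.20 and 0.08 ± 0.18). The 12 falls became 1 without norUDCA_CBDL_175, 2 without CBDL_164, 3 without norUDCA_CBDL_179, 4 without norUDCA_CBDL_172 and 7 without CBDL_165, and the 1 rise became 0 without CBDL_164, norUDCA_CBDL_172, norUDCA_CBDL_175 or norUDCA_CBDL_179.

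In the NF-kB list 5 of 16 fell, Nfkbiz, Nfkbie, Tnfaip3, Rela and Relb, and the mitochondrial dismutase Sod2 rose. Nfkbiz, an inducible co-regulator, read 8.32, 8.65 and 8.30 against 7.58, 7.47 and 7.67 and fell by 0.85 ± 0.13. Rela itself fell by 0.46 ± 0.10. These 5 falls became 1 without CBDL_164, norUDCA_CBDL_172 or norUDCA_CBDL_175 and 2 without CBDL_165 or norUDCA_CBDL_179, and the 1 rise became 0 without sham_158, sham_160, CBDL_164, CBDL_165, norUDCA_CBDL_172, norUDCA_CBDL_175 or norUDCA_CBDL_179. Of 23 complement and acute phase genes 9 fell (median -0.28). Haptoglobin, Hp, read 8.53, 9.16 and 8.06 in CBDL and 5.85, 6.27 and 7.10 in fed kidneys and fell 4.54-fold, the protease inhibitor Serpina3n read 11.21, 12.27 and 11.17 against 9.51, 9.30 and 9.71, and Lbp, which presents endotoxin, fell by 1.11 ± 0.16. Serpina3n stayed more than 3 log2 units above the sham mean of 5.74. The 9 became 4 without norUDCA_CBDL_175 and 5 without CBDL_164, and the count of rises, 0, became 1 without CBDL_170. C4b and C2 had differences of -0.24 ± 0.14 and -0.25 ± 0.12 and were not called.

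Of the 10 measured MHC class II genes only Ctss fell. H2-Ab1, H2-Eb1 and H2-Aa had differences of -0.84 ± 0.31, -0.75 ± 0.34 and -0.55 ± 0.30 that did not pass, and the call count became 6 without CBDL_165, the CBDL array on which this list's signal was lowest. None of 24 interferon genes was called by limma with all 9 arrays, with a median of -0.28. In 10 members the fed arrays lay entirely below the CBDL arrays, against 12.6% of all genes. At an unadjusted limma p under 0.05, 1 was higher and 8 lower, against 2103 higher and 2172 lower of all 22180 genes. The count of falls became 1 without sham_159 or CBDL_170 and 2 without CBDL_165, that of rises 1 without CBDL_170, and with estimated array weights 7 fell and 1 rose. Among 47 IFIT, GBP, IFI and OAS genes taken by symbol, 4 fell (8.51%, against 3.2% of all genes) and none rose. Between 1 and 5 of them fell with 1 array left out. None of 15 neutrophil markers was called by limma (median -0.19, 0 higher and 3 lower at an unadjusted p under 0.05), and 3 fell without CBDL_170. Of 19 lymphocyte markers none was called (median 0.05, 1 higher and 1 lower at an unadjusted p under 0.05), and 1 fell without CBDL_170. The lymphocyte list lay at 4.97 to 5.54 on CBDL arrays and 5.26 to 5.30 on fed arrays.

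Fewer members were called in the lists of distal segments. In the list of thick limb and distal tubule 3 of 19 rose, Klhl3, Slc12a3 and Ptger3. Klhl3, a ubiquitin ligase adaptor that restrains the WNK kinases, read 7.94, 7.67 and 8.12 against 8.80, 8.78 and 8.80 and rose by 0.88 ± 0.13 (adjusted p = 0.00828). Slc12a3, the thiazide-sensitive cotransporter, rose by 0.52 ± 0.14, at the threshold (adjusted p = 0.05 after rounding). Umod, the most abundant thick limb product, read 12.84, 12.58 and 12.82 against 12.76, 12.87 and 12.72 and was not called (0.04 ± 0.10). The 3 became 1 without sham_158, sham_160, CBDL_164, norUDCA_CBDL_172, norUDCA_CBDL_175 or norUDCA_CBDL_179.

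In the collecting duct list 6 of 21 rose and none fell (median 0.49). Aqp3, the basolateral water channel of principal cells, read 8.93, 7.70 and 8.72 in CBDL and 9.54, 9.94 and 9.68 in fed kidneys, with CBDL_165 lowest, and rose by 1.27 ± 0.27. Aqp2, the vasopressin-regulated apical channel, read 9.55, 8.23 and 9.36 against 9.66, 9.85 and 10.12 and did not pass (adjusted p = 0.213). Slc4a9, the anion exchanger of type B intercalated cells, read 9.42, 9.40 and 9.48 in sham, 9.33, 9.42 and 9.63 in CBDL and 9.99, 10.01 and 10.02 in fed kidneys, so the fed arrays were above both other groups, by 0.54 ± 0.10 against CBDL. Slc26a4 (pendrin), its apical partner, rose by 1.45 ± 0.34, and Hsd11b2, which protects the mineralocorticoid receptor from glucocorticoid, by 0.57 ± 0.12. The 6 became 0 without norUDCA_CBDL_172 or norUDCA_CBDL_179, 1 without norUDCA_CBDL_175, 2 without CBDL_164 and 3 without CBDL_165.

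Of 11 podocyte genes only Nes fell, by 0.67 ± 0.11 (adjusted p at most 0.0496 with 1 array left out), the fall count being 2 without sham_158 or sham_159 and the rise count 2 without CBDL_170, and Nphs1, of the slit diaphragm, had a difference of 0.38 ± 0.11 that did not pass. Of 17 endothelial genes Kdr, the VEGF receptor, rose by 0.60 ± 0.13 and Vwf fell by 0.45 ± 0.11, with adjusted p of at most 0.0965 and 0.143 with 1 array left out. The 1 rise became 0 without CBDL_164, CBDL_165, norUDCA_CBDL_172, norUDCA_CBDL_175 or norUDCA_CBDL_179 and 3 without CBDL_170, and the 1 fall became 0 without CBDL_164, CBDL_165, CBDL_170, norUDCA_CBDL_172, norUDCA_CBDL_175 or norUDCA_CBDL_179. The ligand Vegfa rose by 0.40 ± 0.09. Pecam1 and Cdh5, which mark all endothelium, had differences of -0.17 ± 0.09 and -0.09 ± 0.09. Among 18 genes of vascular tone and renin-angiotensin signalling, Ptger3, Ace and the angiotensin receptor Agtr1a rose, and endothelin, Edn1, and Ptger4 fell. Edn1 read 8.94, 10.13 and 9.11 against 7.83, 7.83 and 8.10, a fall of 1.47 ± 0.33 (adjusted p = 0.0292), and Agtr1a rose by 0.74 ± 0.16. The 3 rises became 0 without CBDL_164, CBDL_165, norUDCA_CBDL_172, norUDCA_CBDL_175 or norUDCA_CBDL_179, and the 2 falls became 0 without CBDL_164, CBDL_165, norUDCA_CBDL_172, norUDCA_CBDL_175 or norUDCA_CBDL_179.

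Of 18 circadian genes 3 rose, the clock repressor Nr1d1, the output factor Hlf and Usp2. Nr1d1 read 10.10, 10.49 and 10.26 in sham, 9.15, 8.97 and 9.76 in CBDL and 10.31, 10.33 and 10.28 in fed kidneys, a rise of 1.01 ± 0.19. The core clock genes Arntl and Per1 had differences of -0.11 ± 0.19 and 0.06 ± 0.21 and were not called. The time of day of tissue collection is not in the labels. The 3 became 0 without CBDL_164 or norUDCA_CBDL_175, 1 without norUDCA_CBDL_172 or norUDCA_CBDL_179 and 5 without CBDL_170.

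Among 38 cell cycle genes only Prc1 (2.63%, near the 3.2% of all genes), a spindle midzone protein, fell, by 0.51 ± 0.12. This count became 0 without CBDL_164, norUDCA_CBDL_172, norUDCA_CBDL_175 or norUDCA_CBDL_179, 2 without sham_158 and 5 without sham_159. The median was -0.27, and in 17 members the fed arrays lay below all CBDL arrays, against 12.6% of all genes. Mki67 read 8.05, 8.37 and 8.36 in CBDL and 7.69, 7.62 and 7.57 in fed kidneys without overlap, at an adjusted p of 0.0565. Among 19 p53 and senescence genes Plk2, Cdkn1a, Btg2 and Pmaip1 fell. Plk2, a p53-induced kinase, read 8.45, 8.82 and 8.64 against 7.77, 7.47 and 7.66 and fell by 1.0 ± 0.14, and Cdkn1a, the cell cycle inhibitor p21, by 0.99 ± 0.21. These 4 became 1 without norUDCA_CBDL_175 and 2 without CBDL_165. Of 20 cell death genes Casp12, Tnfrsf12a, Mlkl and Tnfrsf10b fell, Mlkl, which carries out necroptosis, by 0.54 ± 0.13. These 4 became 0 without CBDL_164, norUDCA_CBDL_172, norUDCA_CBDL_175 or norUDCA_CBDL_179, 1 without CBDL_165 and 2 without sham_158.

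Lysosomal genes fell in 6 of 23 members, Gpnmb, Ctss, Cd68, Ctsk, Ctsd and Ctsc, of which the first 3 are also macrophage markers. Ctsd, the ubiquitous aspartic protease, read 12.50, 12.85 and 12.55 against 12.08, 11.81 and 12.08 and fell by 0.64 ± 0.12. These 6 became 1 without norUDCA_CBDL_175, 2 without CBDL_164, CBDL_165 or norUDCA_CBDL_172 and 3 without norUDCA_CBDL_179. In iron and heme handling the transferrin receptor Tfrc rose by 1.03 ± 0.17 and the metal transporter Slc11a2 by 0.51 ± 0.11, while Hp, Lcn2 and the ferroxidase Cp fell. Cp read 11.30, 11.78 and 11.52 against 10.70, 10.45 and 10.71 and remained above the sham mean of 9.0. The heme oxygenase Hmox1 had a difference of -0.82 ± 0.29 and was not called. The 2 rises became 0 without CBDL_164 and 1 without CBDL_165, norUDCA_CBDL_172, norUDCA_CBDL_175 or norUDCA_CBDL_179.

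NRF2 and redox genes gave 3 rises (12.5%), Cat, Sod2 and Sod1, and 1 fall (4.17%), the metallothionein Mt2, in 24 members. Over all genes 3.61% rose and 3.2% fell, so the single fall was near that share. Catalase, Cat, rose by 0.70 ± 0.17 and Mt2 fell by 0.59 ± 0.12, while Nqo1 and Gclc, standard NRF2 targets, had differences of 0.40 ± 0.20 and 0.05 ± 0.17. The 3 rises became 0 without sham_158, sham_160, CBDL_164, CBDL_165, norUDCA_CBDL_172, norUDCA_CBDL_175 or norUDCA_CBDL_179 and 5 without CBDL_170, and the 1 fall became 0 without CBDL_164, CBDL_165, norUDCA_CBDL_172 or norUDCA_CBDL_175 and 2 without CBDL_170. In the unfolded protein response only Edem1 of 22 (4.55%, near the 3.61% of all genes) rose, by 0.42 ± 0.11. This count became 0 without sham_158, sham_160, CBDL_164, CBDL_165, norUDCA_CBDL_172, norUDCA_CBDL_175 or norUDCA_CBDL_179. Hspa5 and Ddit3 had differences of 0.15 ± 0.11 and -0.22 ± 0.14. Among 25 glycolysis and hypoxia genes Hk2 alone fell (4.0%, near the 3.2% of all genes). In this list 2 rose, Pgam1 and Vegfa (8.0%, against 3.61%), and Ldha and Slc2a1 had differences of 0.03 ± 0.11 and -0.14 ± 0.12. The 2 rises became 0 without CBDL_164, CBDL_165, norUDCA_CBDL_172, norUDCA_CBDL_175 or norUDCA_CBDL_179, 1 without sham_158 or sham_160 and 5 without CBDL_170.

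Markers of tissues that can be carried along with kidney were examined last. Of 11 adipose genes Adipoq and Plin4 fell and Pck1, which the proximal tubule also expresses, rose. Adipoq read 5.82, 4.97 and 5.73 in sham, 7.69, 7.52 and 7.62 in CBDL and 5.55, 6.31 and 6.53 in fed kidneys, a fall of 1.48 ± 0.27 (adjusted p = 0.0148). Cidec read 9.07, 7.62 and 9.85 against 4.84, 6.73 and 7.24 and just missed the threshold (adjusted p = 0.0567). The adipose list mean lay between 7.30 and 8.52 on CBDL arrays and 6.78 and 7.97 on fed arrays, and its part in the other results was not tested. The 2 falls became 0 without CBDL_164 or norUDCA_CBDL_175 and 1 without norUDCA_CBDL_172, and the 1 rise became 0 without sham_158, sham_160, CBDL_164, CBDL_165, norUDCA_CBDL_175 or norUDCA_CBDL_179. Of 12 hepatocyte genes Apob, Apoc3 and Alb rose, with Alb at 5.66, 5.28 and 5.66 against 5.92, 6.18 and 6.33 and the list mean no higher than 5.88 on any of the 6 arrays. The 3 rises became 0 without CBDL_164, norUDCA_CBDL_175 or norUDCA_CBDL_179 and 1 without sham_158, sham_159, sham_160, CBDL_165 or norUDCA_CBDL_172. None of 8 urothelial genes (0 higher and 1 lower at an unadjusted p under 0.05) and none of 7 adrenal genes (1 higher and 1 lower) was called by limma. At that unadjusted threshold 2103 of all 22180 genes were higher and 2172 lower. Of the adrenal genes 1 rose without norUDCA_CBDL_175 and 1 fell without sham_159. The urothelial list mean ranged from 6.63 to 7.58 on CBDL arrays and 6.48 to 6.95 on fed arrays.

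Gene families were also taken by symbol. Over all genes 3.61% were called higher and 3.2% lower. The falls of solute carriers (4.52%) and the integrin rise (3.33%) were near these shares, and the P450 fall (1.02%) was below. Of 376 solute carriers 70 rose and 17 fell, of 98 cytochrome P450 genes 16 rose and 1 fell, and of 14 aldo-keto reductases 6 rose and 1 fell. Of 44 collagens 13 fell and none rose, of 30 integrins 9 fell and 1 rose, and of 11 annexins 5 fell and none rose. With 1 array left out, between 12 and 97 solute carriers and between 1 and 20 P450 genes rose, and between 8 and 16 collagens and between 2 and 11 integrins fell. Over the same fits the falls of solute carriers ranged from 3 to 19 and those of annexins from 2 to 5. The rises of aldo-keto reductases ranged from 0 to 6. The single falls among P450 genes and aldo-keto reductases and the single integrin rise were each lost in at least 1 of these fits. Olfactory receptors, which are mostly silent in kidney, gave 2 rises and 2 falls among 1105 genes, and ribosomal protein genes 1 rise among 89. Among the family members, the integrin Itga2, a collagen receptor of epithelium, fell by 1.46 ± 0.19, the laminin chain Lamb3 by 1.03 ± 0.17 and the receptor Il1rl2, of interleukin-36, by 1.10 ± 0.13, whereas the laminin chain Lama1 rose by 0.64 ± 0.15.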

How the data were processed

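Mouse kidney RNA was measured on 9 whole-transcript arrays. The deposited values are log2 signals normalized by the authors with RMA in Partek 6.6, per the submitters' processing notes. RNA was extracted with TRIzol, per the labels' protocols. The array model, genome build, and any filtering or batch correction are not given in the sources used here. The values were used without further scaling. Arrays limit the precision by their number.

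Of 41345 rows, 23521 carry 1 gene symbol, 1814 several and 16010 none. The brightest single-symbol row of each gene was tested, which left 1341 rows unused and 22180 genes. Near-equal values are common in these data. In 14.7% of genes at least 2 of the 3 norUDCA-fed arrays differed by less than 5e-04, against 9.93% in CBDL and 8.16% in sham, and this narrows the spread of such genes.

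limma 3.58.1 in R 4.3.3 was fitted to all 9 arrays with 1 mean per group (6 residual and 3.77 prior degrees of freedom), with Benjamini-Hochberg adjustment over all genes, two-sided. Every adjusted p is from this fit. An exact permutation test of 3 against 3 arrays cannot go below a p of 0.1. In simulated data with the spread of these arrays, 31% of planted 1.5-fold and 68% of planted 2-fold changes were recovered. Far fewer genes were given a change there than were called here, which makes the adjusted threshold stricter, so recovery in this comparison may differ.

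The members and the 43 lists and 37 families were chosen with earlier results of these data known. Lists are described by counts and medians, with no set test. Named genes are the 20 largest increases and decreases among called genes (predicted genes left out), the 10 lowest p, up to 4 lowest p per list and family, and Havcr1, Lcn2, Vcam1, Col1a1, Cyp4a14, Aqp2, Slc10a2, Slc51a, Abcc2, Abcc3, Abcc4, Dnase1, Adipoq and Y-linked genes. Other genes that are named, uncalled list members among them, were chosen after their values were seen. Differences from sham share arrays with this comparison, so no overlap between comparisons is given. Promoter windows are the 250 bases before a gene's start in RefSeq (GRCm38.p6), with mouse chromosome 18 left out. Alternatives were an intensity trend, array weights, unmoderated variances, only the 6 arrays, a signal filter, the mean of a gene's rows, median centring, quantile normalization, stricter thresholds, each array left out and, chosen after seeing the data, all rows in the fit and the omission of genes with near-equal fed arrays.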

Additional observations from a re-analysis of the deposited data

Results flagged for a closer look

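Signal was also present in rows that the comparison does not use. When all 41345 rows were fitted together, 23 of the 1814 rows that carry several gene symbols were called in norUDCA-fed CBDL against CBDL kidneys (12 higher, 11 lower, 1.27%). Of the 16010 rows with no symbol 42 were called (24 higher, 18 lower, 0.262%). Of the 23521 rows with 1 symbol, 1.73% were called in that fit (200 higher, 206 lower). The genes behind rows with no symbol are not named in the annotation used, and those with several symbols were not assigned to 1 gene.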

How the results depend on the processing

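All 1509 called genes that an alternative tested kept their direction in each alternative run. Only the mean of a gene's rows, median centring and quantile normalization could have changed a direction. The other alternatives kept the same values, and weighting or leaving out arrays cannot reverse groups that do not overlap. The number called varied. Against 800 higher and 709 lower genes, unmoderated variances gave 10 and 15, only the 6 arrays gave 404 and 508, and median centring gave 1224 and 646. All rows in the fit gave 197 and 205, an adjusted p under 0.01 gave 93 and 125, and a difference of at least 1 gave 239 and 160. With 1 array left out, counts ranged from 136 to 1152 higher and from 142 to 891 lower. An intensity trend (1016 and 836), array weights (1148 and 975), genes with a mean signal of at least 5.2 (1092 and 934), the mean of a gene's rows (789 and 688), quantile normalization (904 and 823) and the omission of genes with near-equal fed arrays (716 and 635) stayed within 1.5 times. Of the 1350 called genes without near-equal fed arrays, 1327 were called in that last fit. The cause of these shifts was not tested. Fits with fewer arrays or no moderation have fewer degrees of freedom, and the fit of all rows adjusts over more tests. No paired analysis was possible because the groups share no replicate numbers. Of the called genes 46 had a mean signal under 5.2. In the simulation, which held far fewer changed genes than were called, 31% of planted 1.5-fold changes were recovered.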

Other observations

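The genes in this section were chosen after their values were seen, although Acmsd and Dmgdh were also named above among the largest rises. Cyp27b1, Cyp24a1 and Cyp26b1 also count among the cytochrome P450 genes taken by symbol. The pathways in this section were not taken as fixed lists, so no share of a pathway is given, and the background is the 6.8% of all genes called. The first are enzymes of the kynurenine pathway, which turns tryptophan into NAD. Kmo, which hydroxylates kynurenine, read 8.76, 8.07 and 9.40 in CBDL and 10.36, 10.24 and 10.28 in fed kidneys, a rise of 1.55 ± 0.26 (limma adjusted p = 0.0121). Afmid rose by 1.23 ± 0.15, Haao by 1.69 ± 0.31, Ido2 by 1.56 ± 0.26, Aadat by 1.40 ± 0.28 and Qprt by 0.59 ± 0.15. Acmsd, which diverts the pathway away from NAD, rose by 1.98 ± 0.37. Kynu, which cleaves kynurenine, read 6.81, 6.64 and 5.97 in sham, 6.82, 6.6 and 7.17 in CBDL and 8.0, 7.97 and 7.83 in fed kidneys, so the fed arrays lay above all arrays of both other groups. Tdo2, the hepatic entry enzyme, had a low signal and was not called (-0.12 ± 0.20), and Naprt and Kyat1 were not called either (0.53 ± 0.20 and 0.35 ± 0.15).

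The next genes act in the breakdown of betaine, glycine and sulfur amino acids. Chdh, which makes betaine aldehyde from choline, rose by 0.61 ± 0.12, Bhmt by 1.0 ± 0.23, Dmgdh by 2.01 ± 0.39, Sardh by 0.83 ± 0.15 and Gnmt by 0.81 ± 0.12. Amt, of the glycine cleavage system, read 8.31, 8.52 and 8.56 in CBDL and 9.39, 9.72 and 9.34 in fed kidneys, and Shmt2 rose by 1.16 ± 0.19. Cbs and Cth, which lead homocysteine to cysteine, rose by 1.21 ± 0.29 and 1.12 ± 0.18, and Gatm and Gamt, the enzymes of creatine synthesis, by 1.32 ± 0.26 and 0.95 ± 0.18. Gldc had a difference of 0.65 ± 0.18 and was not called, and its fed arrays were above every sham array.

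Vitamin D and calcium genes changed in both directions. Cyp27b1, which activates vitamin D, read 7.25, 7.94 and 7.12 in sham, 7.79, 7.52 and 8.28 in CBDL and 8.79, 8.83 and 9.35 in fed kidneys, and Cyp24a1, which inactivates it, had a difference of -1.0 ± 0.39 and was not called. The calcium-binding protein S100g rose by 1.57 ± 0.25, and the calcium channel Trpv6 read 7.59, 8.50 and 8.03 against 6.70, 6.26 and 6.42, a fall of 1.58 ± 0.21. In retinoid metabolism Aldh1a2, which makes retinoic acid, fell by 1.15 ± 0.14, whereas Rdh16f2 read 10.03, 9.36 and 9.62 in sham, 9.32, 8.45 and 9.97 in CBDL and 11.20, 11.09 and 10.94 in fed kidneys, a rise of 1.83 ± 0.32, and Cyp26b1, which degrades retinoic acid, rose by 0.93 ± 0.23.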
